A study of Mus musculus with 20 samples.

Results

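The antiviral interferon-stimulated genes described here are 45 mouse genes chosen by name: the sensors, effectors and STAT/IRF transcription factors of the antiviral interferon response, with interferon-β and the subunits of the type I and type II interferon receptors. All 45 were found among the 56748 genes of each of the 2 count tables, and all 45 had enough counts to be tested in both. They were read by genotype and stimulation in all 20 libraries, and split by whether they were higher or lower without iNOS, the inducible nitric oxide synthase encoded by Nos2. The study asked how nitric oxide remodels macrophages activated by LPS (bacterial lipopolysaccharide) and IFNγ, and what AKR1A1, a reductase of S-nitroso-coenzyme A, contributes. RNA of bulk cell cultures was sequenced in 2 experiments. The first held 12 libraries, with 3 in each of 4 groups: WT unstimulated, WT stimulated, iNOS KO unstimulated and iNOS KO stimulated. Their labels name them BMDM, bone marrow-derived macrophages grown with M-CSF from C57BL/6J mice that were wildtype or lacked iNOS and were 6 to 12 weeks old, whereas the paper places the work in RAW264.7, a macrophage line of mouse origin. That difference was not settled here, and they are called the libraries labelled BMDM. In the methods text the WT mice for BMDM are C57BL/6J and the iNOS KO mice B6.129P2-Nos2tm1Lau/J, so strain background and iNOS genotype cannot be told apart. The second held 8 libraries of RAW264.7 cells, with 2 in each of WT unstimulated, WT stimulated, Akr1a1 KO unstimulated and Akr1a1 KO stimulated. The Akr1a1 KO cells were CRISPR-Cas9 edited and grown from single sorted cells, so each KO line is 1 clone, and the paper describes 2 independent clonal replicates. Stimulated cells received LPS at 50 ng/mL for 48 h, with IFNγ at 30 ng/mL in the BMDM protocol or 10 ng/mL in the RAW264.7 protocol. Replicates carry the letters A to C in the first experiment and A and B in the second.

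Interferons are secreted proteins that put neighbouring cells into an antiviral state. Interferon-β, a type I interferon, signals through IFNAR1 and IFNAR2 to a complex that holds STAT2 and IRF9 and binds interferon-stimulated response elements (ISRE). IFNγ, the type II interferon, signals through IFNGR1 and IFNGR2 and acts on genes with gamma-activated sites (GAS). LPS, sensed by TLR4, makes macrophages release interferon-β, so cells given LPS and IFNγ receive both kinds of signal.

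Promoter sequences are shown first, for 5 members on which the iNOS comparison turned: Rsad2, Cmpk2 and Irf1, which fell below WT in the stimulated iNOS KO libraries, and Ifitm3 and Isg20, which were higher. Each is the 250 bases before a RefSeq start site in GRCm38.p6, written 5′ to 3′ on the gene's strand, with matches to 2 core motifs in capitals. The Rsad2 window (chr12:26456453-26456702, minus strand) held a match to the ISRE core, on the reverse strand, 119 to 111 bases before the start. The first of 2 Irf1 windows (chr11:53769764-53770013, plus strand) and the first of 3 Isg20 windows (chr7:78913174-78913423, plus strand) held a match to the GAS core. These matches lay 90 to 82 and 73 to 65 bases before the start. The Cmpk2 (chr12:26468965-26469214, plus strand) and Ifitm3 (chr7:141010745-141010994, minus strand) windows held neither. The other Irf1 and Isg20 windows, and those of Herc6 (lower) and Ifi35 (higher), also held neither and are not printed.
Rsad2: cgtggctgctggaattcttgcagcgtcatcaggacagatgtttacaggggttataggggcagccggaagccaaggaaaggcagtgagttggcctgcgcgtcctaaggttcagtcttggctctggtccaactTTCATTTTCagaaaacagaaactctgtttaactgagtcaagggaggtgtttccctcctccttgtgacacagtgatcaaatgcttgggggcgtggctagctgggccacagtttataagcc
Cmpk2: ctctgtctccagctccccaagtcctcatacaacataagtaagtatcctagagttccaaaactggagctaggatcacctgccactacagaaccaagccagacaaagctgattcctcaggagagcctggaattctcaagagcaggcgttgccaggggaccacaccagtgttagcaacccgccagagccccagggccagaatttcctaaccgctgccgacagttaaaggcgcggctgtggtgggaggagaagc
Irf1: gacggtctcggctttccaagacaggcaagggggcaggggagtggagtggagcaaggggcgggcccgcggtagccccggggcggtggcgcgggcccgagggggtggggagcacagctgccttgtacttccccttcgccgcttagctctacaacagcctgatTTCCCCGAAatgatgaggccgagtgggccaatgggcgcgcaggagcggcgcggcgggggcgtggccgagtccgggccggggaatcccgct
Ifitm3: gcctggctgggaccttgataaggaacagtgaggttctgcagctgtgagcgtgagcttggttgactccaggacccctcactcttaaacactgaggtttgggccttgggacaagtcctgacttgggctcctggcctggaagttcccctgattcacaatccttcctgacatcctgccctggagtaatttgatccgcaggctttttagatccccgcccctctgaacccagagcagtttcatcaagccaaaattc
Isg20: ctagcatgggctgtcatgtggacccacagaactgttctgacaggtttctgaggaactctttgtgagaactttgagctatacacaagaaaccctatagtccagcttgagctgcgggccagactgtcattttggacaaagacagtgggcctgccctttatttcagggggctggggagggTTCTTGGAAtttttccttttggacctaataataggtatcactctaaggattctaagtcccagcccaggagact

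Promoter windows were given for 36 of the 45 members. The ISRE core, searched as GAAANNGAA on both strands, was in 14 of the 36 (38.9%) and in 8.18% of the 27025 symbols with a window. With 1 more A (GAAANNGAAA) it was in 11 of the 36 (30.6%), against 3.46% of symbols. The GAS core, searched as TTCNNNGAA on both strands, was in 8 of the 36 (22.2%) and in 8.13% of symbols. The motifs can overlap, and a symbol was counted if any of its windows held a match. Among members higher without iNOS after stimulation, 7 of 13 with a window held the ISRE core and 4 held the GAS core. Among members lower, 5 of 14 held the ISRE core and 2 the GAS core. These matches are letters in a window, not measured binding. Oas2, Parp14, Mx1, Mx2, Zbp1, Rtp4, Dhx58, Parp9 and Usp18 had no window in the table.

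Depth was 15072109 to 18878107 counts per library for those labelled BMDM, and 11876719 to 44583327 for RAW264.7. CPM, a gene's counts scaled to a common library size, was computed with totals scaled by TMM, a correction for composition, and for each experiment edgeR's quasi-likelihood test was fitted to all genes with at least 10 counts. A gene passed, and is called higher or lower, where its Benjamini-Hochberg adjusted p was under 0.05. Nos2 was at 10370 to 11533 CPM in WT stimulated, 870 to 912 in iNOS KO stimulated and 0 in iNOS KO unstimulated libraries. Akr1a1 was at 427 to 675 CPM in WT and 21.8 to 370 in Akr1a1 KO RAW264.7 libraries. The unstimulated libraries of RAW264.7 replicate B carry titles that say stimulated, while their treatment label says unstimulated, and they were taken as unstimulated. The summed CPM of 7 macrophage markers was 6203 to 6947 in WT stimulated and 9490 to 9889 in iNOS KO stimulated libraries, and at rest 6724 to 7107 in WT and 4549 to 4813 in iNOS KO. In RAW264.7 stimulated libraries it was 8677 to 9527 in WT and 2991 to 6581 in Akr1a1 KO. The part of these markers in the differences below was not tested. Markers of plasmacytoid dendritic, NK, T and B cells summed to at most 5.16 CPM per list in any library. The summed CPM of 5 neutrophil markers was 35.5 to 61.8 in WT stimulated, 38.4 to 44.2 in iNOS KO stimulated and 121 to 419 in RAW264.7 stimulated libraries, nearly all of it S100a8, against at most 1.17 in unstimulated libraries. That of 5 fibroblast markers was 2.30 to 2.63 in WT stimulated and 11.2 to 16.4 in iNOS KO stimulated libraries, from Dcn and Lum. Their part was not tested. In bulk RNA, fewer cells that express a gene and less RNA per cell cannot be told apart. The methods text says that bone marrow for BMDM was pooled by genotype, and nothing states that libraries of 1 group came from separate mice. The p-values therefore measure the spread between these libraries, which may be technical, and cannot be taken to cover the spread between mice.

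Stimulation raised nearly the whole set in the libraries labelled BMDM. In WT, 43 of 45 members were higher and 2 lower, where 32.4% of the 18691 genes tested were higher and 28.5% lower. In iNOS KO, 43 were higher and 1 lower, where 27.3% and 24.6% of all genes were. The median log2 fold change of the members was 4.55 in WT and 4.79 in iNOS KO, against 0.07 and 0.00 over all genes. It was 4.69 in WT without Ifnb1, which had 3 counts or fewer in every library of both groups. The members that fell in WT were both subunits of the IFNγ receptor, Ifngr1 (-0.33) and Ifngr2 (-0.19), and in iNOS KO it was Ifngr2 (-0.19). The largest rise in WT was that of Rsad2, which encodes viperin, an enzyme that makes a chain-terminating nucleotide. Its unstimulated WT libraries held 1.45, 1.89 and 1.64 CPM. Oasl2, Cmpk2, Zbp1 and Ifit1 followed, with log2 fold changes of 10.14, 9.77, 9.35 and 9.13. The smallest rises were those of the receptor subunits Ifnar2 (0.32, but -0.14 without TMM, where the median of all genes was -0.39) and Ifnar1 (0.72) and of Ifitm3 (0.92), a membrane protein that blocks virus entry.

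**Figure D1:**
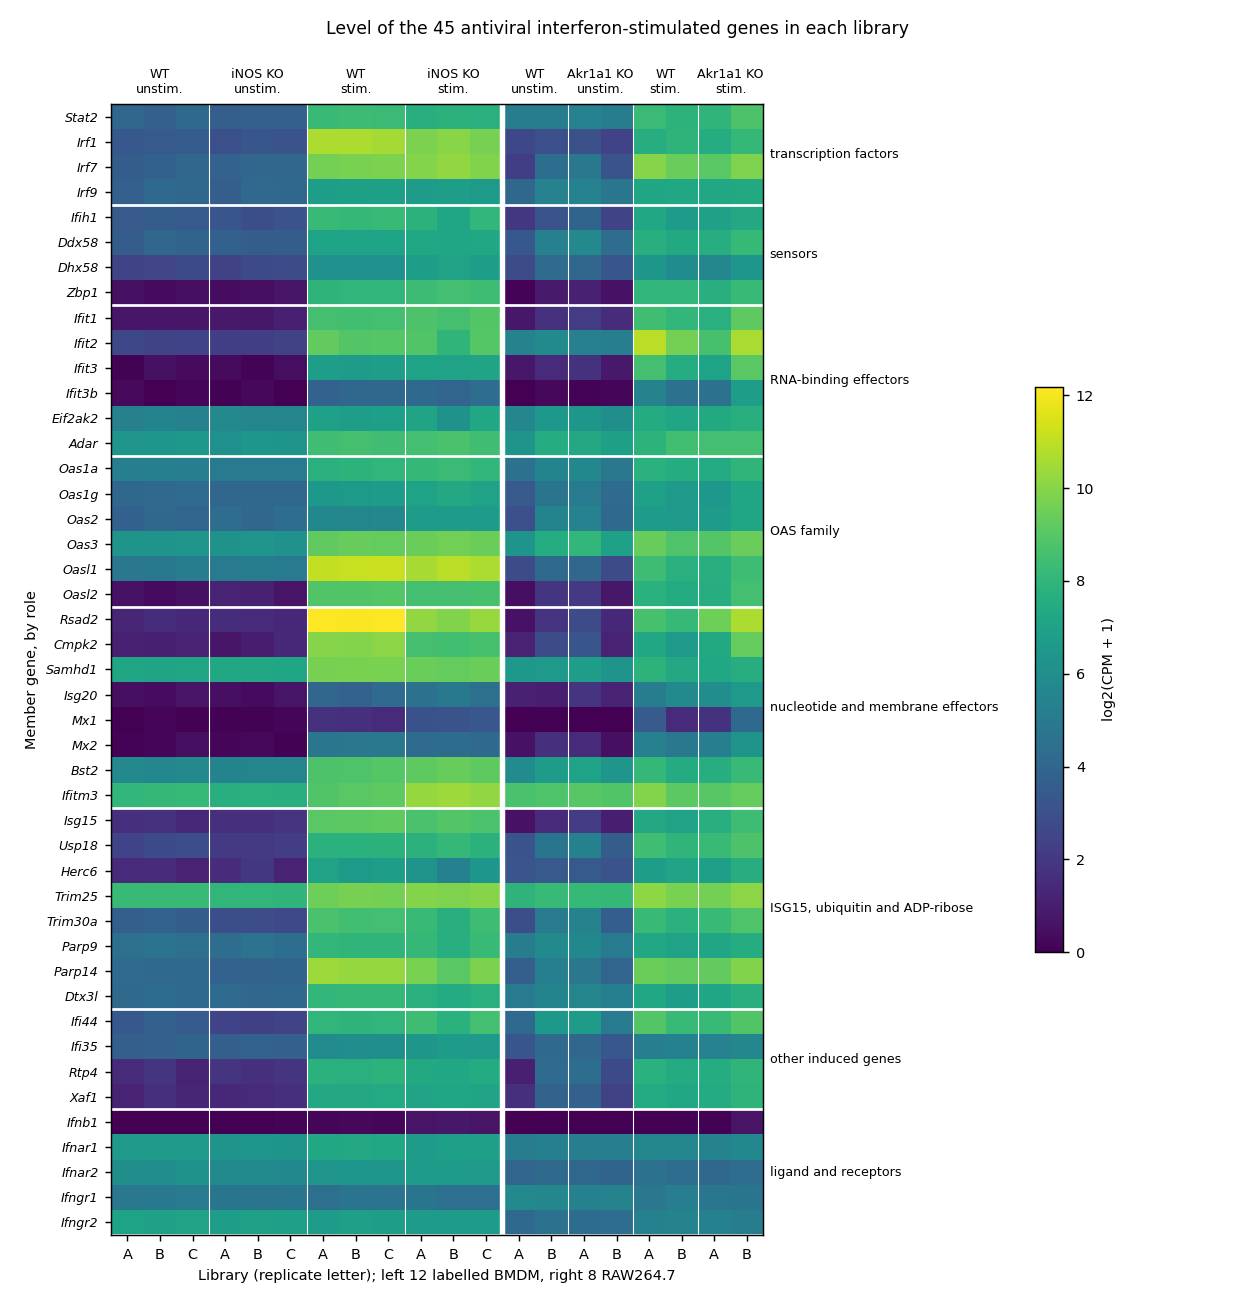
Log2(CPM + 1) of the 45 members (rows, grouped by role) in each of the 20 libraries (columns, grouped by experiment, genotype and stimulation). Nearly every member was low in unstimulated and high in stimulated libraries of both experiments, while the receptor subunits changed less, with log2 fold changes on stimulation between -0.67 (Ifngr1, RAW264.7 WT) and 1.05 (Ifngr2, RAW264.7 WT).

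Levels between genes were compared only as CPM per kilobase of gene length. By group mean in WT stimulated libraries the order was led by Rsad2 (1074, 1031 and 1059.5 CPM per kb in replicates A, B and C), Oasl1 (832, 875 and 911) and Isg15 (750.4, 779.9 and 854), and Mx1 and Ifnb1 were lowest. In iNOS KO stimulated libraries Ifitm3 (1796, 2016 and 1765), Bst2 (643, 719.8 and 641) and Oasl1 (589, 747 and 622) led. Rsad2 held 269, 213 and 288 CPM per kb there.

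Without iNOS the stimulated level of the set split evenly. Of 45 members, 17 were higher and 17 lower in iNOS KO stimulated than in WT stimulated libraries, and 11 did not pass. Over all genes tested 24.2% were higher and 24.2% lower. With a limit of 1 on the absolute log2 fold change, 4 were higher (Mx1, Ifnb1, Ifitm3 and Oas2) and 2 lower (Rsad2 and Cmpk2), where 10.7% and 8.87% of all genes were. The median log2 fold change was 0.06 for the members and -0.04 over all genes. Of the 45, 36 had an unadjusted p under 0.05. The share of all genes under that unadjusted limit was not counted, so the 36 are not set apart from it. A single number in brackets after a gene below is its log2 fold change, KO over WT unless another comparison is named, and adjusted p-values are those of edgeR.

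**Figure D2:**
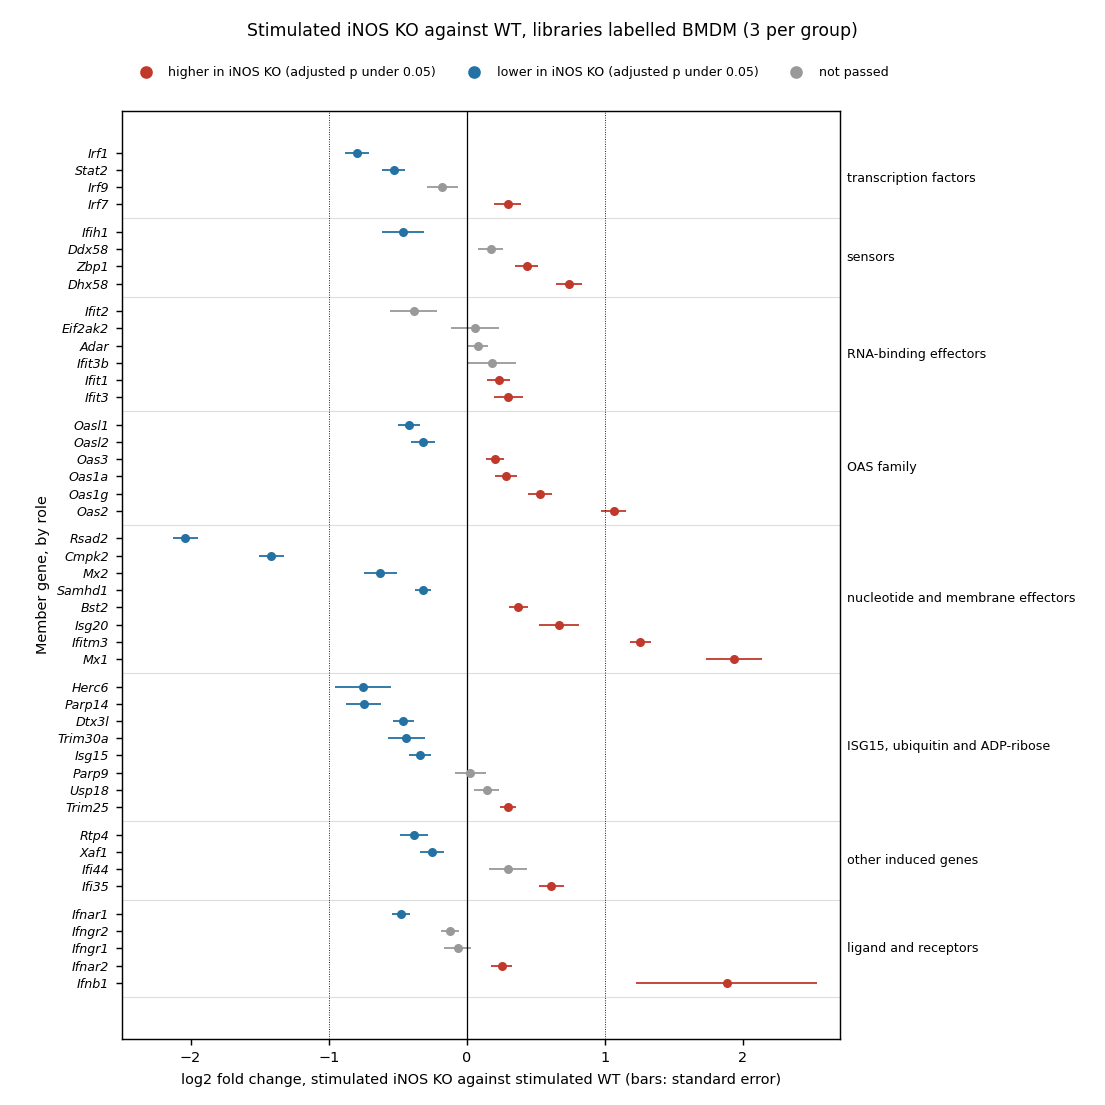
Log2 fold change of each member, iNOS KO stimulated over WT stimulated, with its SE as a bar, grouped by role. The points run from -2.04 for Rsad2 to 1.94 for Mx1, with 17 members past the test on each side of 0.

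Of the 4 transcription factors, 1 was higher, 2 were lower and 1 did not pass. Irf1, a factor that IFNγ induces early, held 1644, 1637 and 1504 CPM in WT stimulated replicates A, B and C. In iNOS KO stimulated replicates it held 884, 1049.9 and 824 CPM. Every iNOS KO library lay below every WT library, with a log2 fold change -0.79, SE 0.084, adjusted p 5.54e-07. Stat2, a subunit of the type I complex, held 298, 322 and 311 CPM in WT and 208, 226 and 211 in iNOS KO. The groups again did not overlap (log2 fold change -0.53, SE 0.085, adjusted p 5.73e-05). Irf7, the factor that amplifies interferon production, moved the other way, from 804, 840.1 and 880.0 CPM in WT to 975, 1184 and 937 in iNOS KO (log2 fold change 0.29, SE 0.098, adjusted p 0.0197), or 0.19 on the log2 scale without iNOS KO stimulated replicate B. Irf9, the DNA-binding subunit of the type I complex, held 112, 122 and 121 CPM in WT, and in iNOS KO 103, 113 and 97.9. These ranges overlapped, and the difference did not pass (log2 fold change -0.18, SE 0.11, adjusted p 0.208). In the table the Irf9 gene lies over part of Rnf31 on the same strand, and the Irf7 gene over part of Phrf1 on the opposite strand, and how the counting used strand is not given in the sources used here. The call of Irf7 was lost without WT stimulated replicate A or B.

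Among 4 sensors of foreign nucleic acid, 2 were higher and 1 was lower. Dhx58 encodes LGP2, which tunes signalling by the RNA sensors RIG-I and MDA5. It held 71.1, 71.6 and 70.3 CPM in WT stimulated libraries and 114, 130.3 and 112 in iNOS KO, with no overlap (log2 fold change 0.74, SE 0.093, adjusted p 4.07e-06). Zbp1, a sensor of Z-form nucleic acid that can start necroptosis, was also higher (0.43, adjusted p 0.000243). Ifih1, which encodes MDA5, was lower (-0.46, adjusted p 0.0175), and Ddx58, which encodes RIG-I, held 131, 131 and 135 CPM in WT and 154, 141 and 154 in iNOS KO (adjusted p 0.132). The call of Ifih1 was lost without WT stimulated replicate A or C.

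Of 6 RNA-binding effectors, 2 were higher and none lower. The IFIT proteins bind viral RNA lacking host cap marks, and Ifit1 (0.23) and Ifit3 (0.30) were the members that passed, both by small amounts and both with calls lost when single stimulated libraries were left out (WT replicate B or C or iNOS KO replicate A or C for both, and WT replicate A for Ifit3). Without iNOS KO replicate C Ifit1 was at 0.14. Ifit2 (-0.39), Ifit3b (0.18), Eif2ak2 (0.061; the kinase PKR, which halts translation) and Adar (0.079; the RNA editing enzyme ADAR1) did not pass. The transcripts of Ifit3 and Ifit3b shared 51.2% and 44.95% of their 50-base stretches, so reads may have been divided between them.

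All 6 members of the OAS family passed. The OAS enzymes make 2′-5′ oligoadenylate, which activates RNase L to cut RNA. Oas2 held 50.6, 47.7 and 48.5 CPM in WT stimulated libraries and 101, 104 and 102 in iNOS KO (log2 fold change 1.06, SE 0.092, adjusted p 4.58e-08), with the lowest iNOS KO library well above the highest of WT. Oas1g (0.53), Oas1a (0.28) and Oas3 (0.20) were higher too. The lower members were Oasl1 (-0.42), which restrains translation of Irf7, and Oasl2 (-0.32), a relative of the OAS enzymes. The call of Oas3 was lost without WT stimulated replicate A. Oas1a and Oas1g shared 57.6% and 45.7% of their 50-base stretches.

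The 8 nucleotide and membrane effectors all passed, 4 higher and 4 lower, and held the largest differences in both directions. Rsad2 held 4654, 4467 and 4593 CPM in WT stimulated replicates A, B and C and 1168, 925 and 1246 in iNOS KO. It was 4.11-fold lower without iNOS (log2 fold change -2.04, SE 0.088, adjusted p 7.79e-12), and no library of one group came near the other. Cmpk2, a mitochondrial nucleotide kinase that supplies the substrate of viperin, lies 12751 bases from Rsad2 on chromosome 12, and the genes point away from each other. It held 1001, 984 and 1073 CPM in WT and 384, 364 and 397 in iNOS KO, and was 2.67-fold lower (log2 fold change -1.42, SE 0.091, adjusted p 1.18e-09). Samhd1, which breaks down nucleotides, was lower by less (-0.32).

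Ifitm3 moved opposite to Rsad2, from 474, 542 and 566 CPM in WT stimulated libraries to 1218, 1367 and 1197 in iNOS KO (log2 fold change 1.26, SE 0.073, adjusted p 3.12e-10). The groups stood well apart, and the fold was 2.39. Isg20, an exonuclease of single-stranded RNA, held 15.2, 13.3 and 18.4 CPM in WT and 23.1, 29.6 and 21.9 in iNOS KO (log2 fold change 0.67, SE 0.15, adjusted p 0.00102). Bst2, the tetherin that holds budding virus at the cell surface, was higher by 0.37. The Mx genes, of a family of dynamin-like GTPases, moved in opposite directions. Mx1 was near the bottom of the set at 2.35, 2.09 and 1.80 CPM in WT and 7.33, 7.79 and 8.83 in iNOS KO (log2 fold change 1.94, SE 0.20, adjusted p 4.97e-07). Mx2 held 26.5, 27.6 and 28.6 CPM in WT, and in iNOS KO 17.9, 18.7 and 16.9 (log2 fold change -0.63, SE 0.12, adjusted p 0.000291). Neither pair of groups overlapped, and Mx1 and Mx2 shared 3.91% and 4.38% of their 50-base stretches.

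Of 8 members of the ISG15, ubiquitin and ADP-ribose system, 1 was higher and 5 lower. Herc6, the main ligase that attaches ISG15 in mice, held 130.3, 99.3 and 111 CPM in WT stimulated libraries and 77.0, 40.6 and 84.3 in iNOS KO (log2 fold change -0.75, SE 0.20, adjusted p 0.00569). Parp14, an ADP-ribosyltransferase, held 1337, 1218 and 1229 CPM in WT, and in iNOS KO 853, 532 and 870.2 (log2 fold change -0.75, SE 0.13, adjusted p 9.48e-05). In both genes the iNOS KO replicate B was far below A and C, although all 3 lay below the WT libraries. Isg15, the ubiquitin-like modifier itself, was lower by less (-0.34), as were Dtx3l (-0.46), a ubiquitin ligase that pairs with PARP9, and Trim30a (-0.44, a call lost without WT stimulated replicate A). Trim25, the ligase that activates RIG-I, was higher (0.30). Usp18 (0.14), the enzyme that removes ISG15, and Parp9 (0.025) did not pass. Dtx3l and Parp9 overlap by 682 bases on opposite strands in the table.

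The 4 other induced genes held 1 higher and 2 lower. Ifi35, an interferon-induced leucine zipper protein, held 58.1, 61.0 and 66.3 CPM in WT stimulated libraries and 86.3, 106 and 91.0 in iNOS KO, without overlap (log2 fold change 0.61, SE 0.091, adjusted p 2.63e-05). Rtp4 (-0.38) and Xaf1 (-0.25), a promoter of cell death, were lower, the latter not without WT stimulated replicate C, and Ifi44 (0.30) did not pass.

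**Figure D3:**
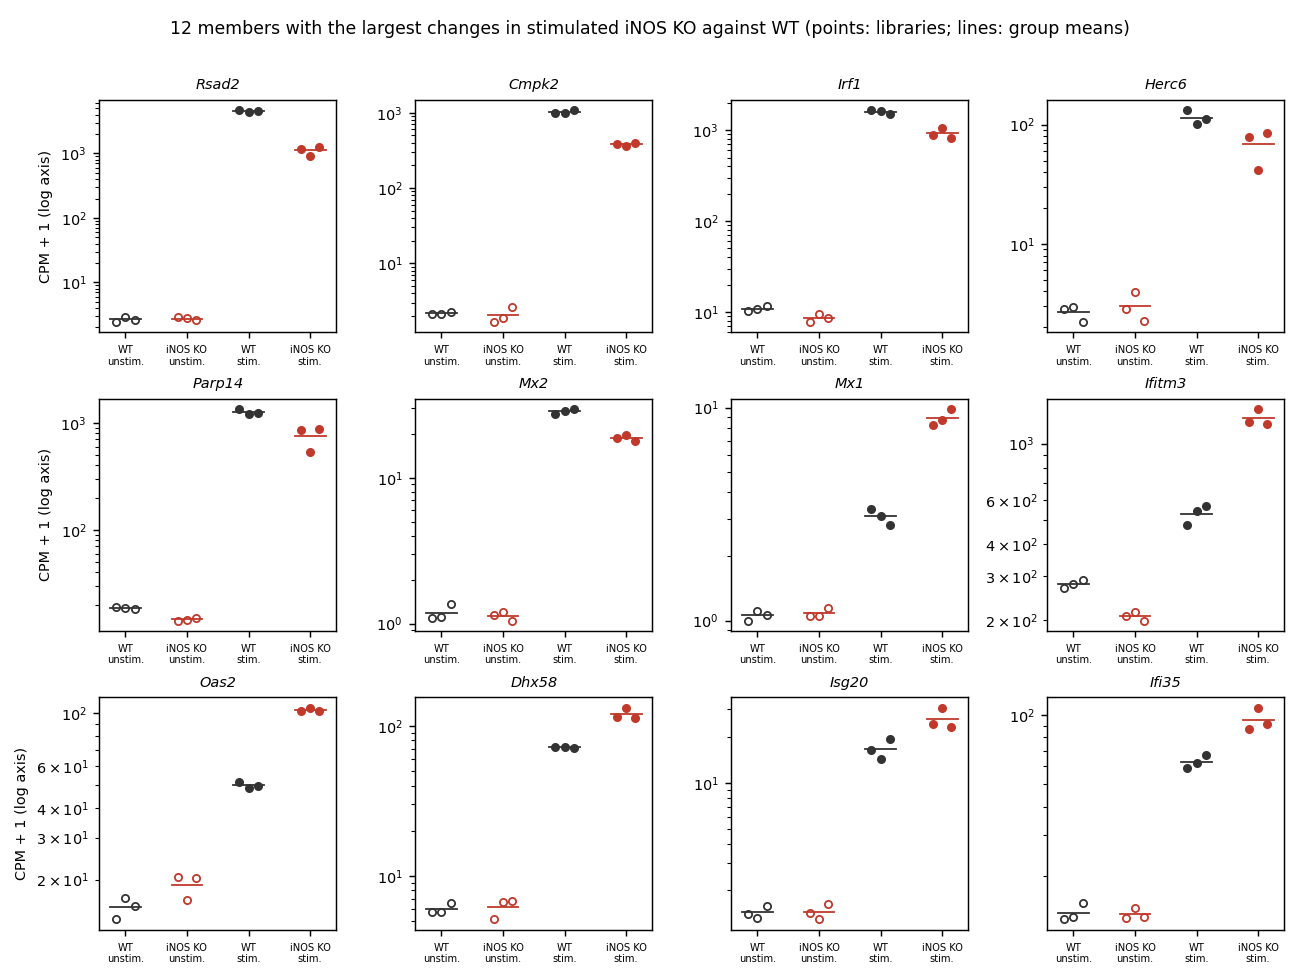
CPM (log axis) of 12 members, 6 lower and 6 higher in iNOS KO stimulated over WT stimulated, in each library labelled BMDM. They were chosen for the largest log2 fold changes among members that passed, whose stimulated groups did not overlap and whose mean was at least 1 CPM in 1 group (which leaves out Ifnb1), and run from Rsad2 (-2.04) to Mx1 (1.94).

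Among interferon-β and the receptor subunits, 2 were higher, 1 was lower and 2 did not pass. Ifnb1 was close to the limit of detection. It had 0 counts in each WT and 0, 0 and 2 counts in the iNOS KO unstimulated libraries, with 2, 3 and 2 counts in WT stimulated libraries and 9, 10 and 9 in iNOS KO. Summed, these were 7 and 28 counts, a ratio of 3.78 with a 95% exact counting interval of 1.61 to 10.3 (adjusted p 0.0283). The call was lost with DESeq2, with the replicate block and without any 1 of 5 of the 6 stimulated libraries (all but iNOS KO replicate C). Ifnar1 held 153, 160.0 and 156 CPM in WT and 104, 118 and 115 in iNOS KO (log2 fold change -0.48, SE 0.065, adjusted p 1.05e-05). Its partner Ifnar2 moved the other way, from 80.5, 84.7 and 83.7 CPM to 97.1, 104 and 95.3 (log2 fold change 0.25, SE 0.074, adjusted p 0.00975). The groups did not overlap in either gene. Ifngr1 held 21.3, 25.1 and 24.1 CPM in WT and 25.5, 20.9 and 20.9 in iNOS KO (adjusted p 0.609). Ifngr2 held 107, 118 and 112 CPM in WT, and in iNOS KO 100.4, 104 and 105 (adjusted p 0.141). Neither IFNγ receptor subunit passed.

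One library stood apart in this comparison. The iNOS KO stimulated replicate B lay below the mean of A and C by over 0.5 on the log2 scale in 8 members (Herc6, Eif2ak2, Ifit2, Ifih1, Trim30a, Parp14, Ifi44 and Parp9), by 0.97 for Herc6, and was the highest of the 3 in 23 members. Over all genes compared its median offset was 0.12 for genes under 2 kb and -0.16 for genes over 8 kb. Other stimulated libraries also had offsets that differed with gene length, with 0.097 and -0.049 in WT replicate C and -0.11 and 0.0014 in WT replicate A. Without it 20 members were higher and 18 lower. Herc6 (-0.49), Ifih1 (-0.25) and Trim30a (-0.24) were then lower, and Irf7 (0.19) higher, by over 1.5 times less, and the call of Ifnb1 was lost. Irf9 (-0.24) was then lower, and Ddx58 (0.21), Eif2ak2 (0.32), Parp9 (0.17) and Ifi44 (0.50) were higher.

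At rest, the genotypes differed in few members. Between iNOS KO and WT unstimulated libraries 1 member was higher and 7 were lower, where 1.88% of all genes were higher and 4.09% lower, and the median log2 fold change was -0.10 against -0.01 over all genes. Ifi44 held 9.12, 12.6 and 10.8 CPM in WT and 4.43, 3.93 and 4.64 in iNOS KO (log2 fold change -1.32, SE 0.20, adjusted p 0.000336). Trim30a, a ubiquitin ligase family member, held 12.0, 13.5 and 11.3 CPM in WT, and in iNOS KO 6.50, 6.37 and 5.42 (log2 fold change -1.01, SE 0.18, adjusted p 0.0018). Neither gene's groups overlapped. Usp18 (-0.73), Ifitm3 (-0.43), Ifnar2 (-0.33), Ifnar1 (-0.24) and Trim25 (-0.23) were the other lower members. Of 19 alternatives, the call of Ifnar1 was lost in 11, that of Trim25 in 8 and that of Ifnar2 in 2. Without the iNOS KO stimulated replicate B, which shares its estimate of the spread with these groups, 3 members were higher and 12 lower, and without the unstimulated replicate C of either genotype 4 were lower. Oasl2 was the member higher at rest, a call lost without WT unstimulated replicate B or iNOS KO unstimulated replicate A or B, at low levels of 0.498, 0.278 and 0.470 CPM in WT and 1.30, 1.14 and 0.586 in iNOS KO (log2 fold change 1.26, SE 0.29, adjusted p 0.014). Rsad2 held 1.45, 1.89 and 1.64 CPM in WT, and in iNOS KO 1.88, 1.79 and 1.56 (adjusted p 0.903).

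The response to stimulation itself differed by genotype in 22 members. By the interaction term, 13 rose more in iNOS KO and 9 rose less, where 20% of all genes had a positive and 15.4% a negative interaction that passed, and the median was 0.09 against -0.02 over all genes. Rsad2 rose by 11.43 on the log2 scale in WT and 9.31 in iNOS KO, an interaction -2.11, SE 0.22, adjusted p 7.36e-07. Cmpk2 rose by 9.77 and 8.48 (interaction -1.28, SE 0.26, adjusted p 0.000942), or -0.85 without iNOS KO unstimulated replicate C. Oasl2 rose by 10.14 and 8.56 (interaction -1.58, SE 0.30, adjusted p 0.000551), and it was already higher in iNOS KO at rest. The resting levels of the neighbours Rsad2 and Cmpk2 did not pass the test between genotypes. Ifitm3 rose by 0.92 in WT and 2.61 in iNOS KO (interaction 1.69, SE 0.10, adjusted p 1.37e-09). Its unstimulated libraries held 269, 278 and 289 CPM in WT and 207, 215 and 199 in iNOS KO, so the order of the genotypes turned on stimulation. Ifi44 (interaction 1.62, SE 0.24, adjusted p 4.5e-05) and Usp18 (interaction 0.88, SE 0.17, adjusted p 0.000549) rose more in iNOS KO from lower resting levels. Irf1 rose less in iNOS KO (-0.43; lost without WT stimulated replicate A or B, WT unstimulated replicate A or iNOS KO unstimulated replicate B), and Ifnar2 more (0.58). The interaction of Stat2 (-0.21), Irf7 (0.13), Irf9 (-0.16), Ifnb1 (-0.57), Ifnar1 (-0.23), Ifngr1 (0.16) and Ifngr2 (0.00) did not pass. Of 18 alternatives, the interaction call was lost in 12 for Ddx58, 7 for Isg15, 4 for Irf1, 4 for Oas3, 2 for Dtx3l and 1 for Rtp4.

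**Figure D4:**
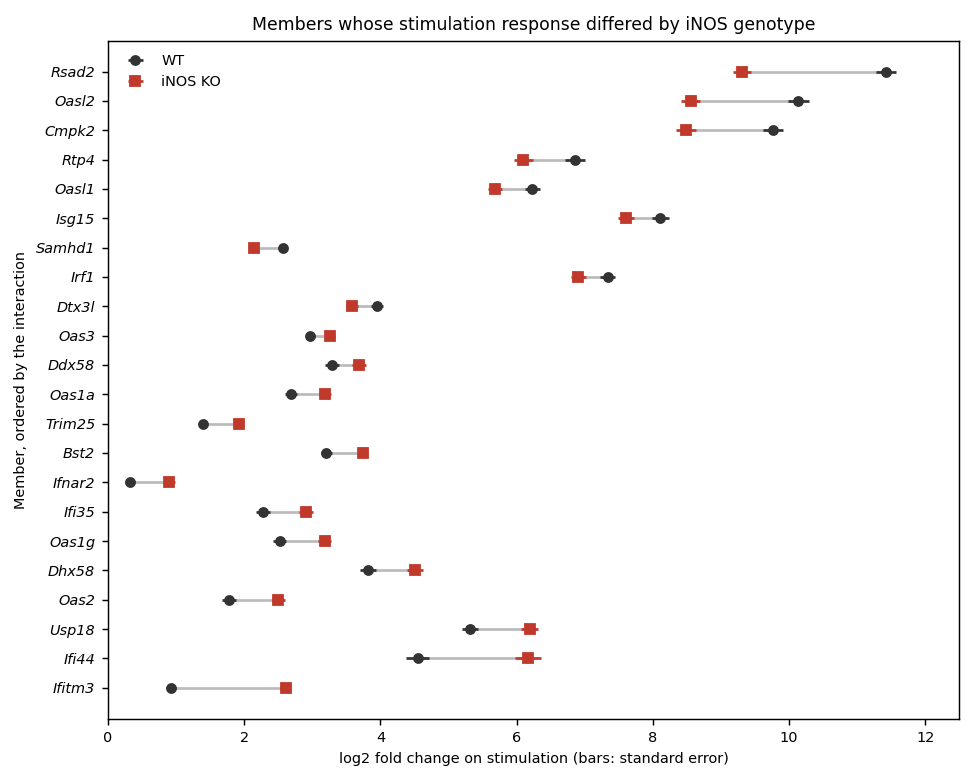
Log2 fold change on stimulation in WT and in iNOS KO for the 22 members whose interaction passed, joined by a line per gene. Rsad2 fell from 11.43 to 9.31 between genotypes and Ifitm3 climbed from 0.92 to 2.61.

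The sides of the split differed in how far stimulation raised them. The 17 members lower without iNOS had a median log2 fold change on stimulation of 6.23 in WT and 5.79 in iNOS KO. The 17 higher without iNOS had 3.21 and 3.74, and the 11 that did not pass 3.29 and 3.62. These medians share the stimulated libraries that made the split, and are given as a description. In RAW264.7 cells, which the split did not use, the same groups had median log2 fold changes on stimulation in WT of 4.45 (lower), 2.58 (higher) and 2.35 (neither).

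Other genes of the pathway were counted in stimulated iNOS KO against stimulated WT libraries, where 24.2% of all genes were higher and 24.2% lower. Of 22 genes of interferon signalling and its sensors, 6 were higher and 7 lower. Those with the largest differences were Cgas (1.61), the sensor of cytosolic DNA, its adaptor Sting1 (1.13), the phosphatase Ptpn6 (1.28), the receptor kinase Jak1 (-1.07) and the transcription factor Irf8 (1.00). Of 55 other interferon-stimulated genes tested, of 57 listed, 25 were higher and 11 lower, with a median log2 fold change of 0.21 against -0.04 over all genes. Ly6a (3.64), Slfn1 (3.05), Slfn9 (2.60), Apol9b (2.55) and Ifi27l2a (2.52) had the largest differences, all higher without iNOS. At rest 0 pathway genes were higher and 4 lower, and 1 of the other interferon-stimulated genes was higher and 5 lower, where 1.88% of all genes were higher and 4.09% lower.

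In RAW264.7 cells stimulation raised nearly the whole set in both genotypes. In WT 41 members were higher and 1 was lower, where 18.5% of the 19569 genes tested were higher and 19.2% lower. In Akr1a1 KO 41 were higher and 1 lower, where 19.8% and 19.4% of all genes were. Ifnar2 and Ifnb1 passed in neither genotype. Ifitm3 passed in WT only, a call lost in 6 of 16 alternatives, and Oas2 in Akr1a1 KO only, a call lost in 5 of 16. The member that fell was Ifngr1 in both (-0.67 and -0.66). Ifngr2, the partner of Ifngr1, rose in both (1.05 and 0.97), while it had fallen in the libraries labelled BMDM. The difference between the experiments was not tested. Zbp1 (8.69), Ifit3b (7.64), Ifit3 (7.64) and Rsad2 (7.58) were among the largest rises in WT. The median was 2.96 in WT and 3.84 in Akr1a1 KO, and 3.33 in WT without Ifnb1, which had at most 1 count in any library there. In Akr1a1 KO it was 3.20 with Mx1 and Ifnb1, at 0 counts in every unstimulated library, set at their lower bounds. Mx1 went from 3 counts in all to 173 in WT, a ratio of 111 with a counting interval of 37.5 to 545. In Akr1a1 KO it went from 0 to 306 counts, at least 137-fold higher against a floor of 3 counts over the group. Ifnb1 had 0 counts in the unstimulated libraries of both genotypes, and 0 and 1 counts in WT stimulated and 1 and 9 in Akr1a1 KO stimulated replicates A and B.

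Between Akr1a1 KO and WT no member passed. After stimulation 0 were higher and 0 lower by edgeR and by DESeq2, where 0.0869% of all genes were higher and 0.199% lower by edgeR, and 2 had an unadjusted p under 0.05. At rest 0 and 0 passed by edgeR, where 0.23% and 0.353% of all genes did, and 0 had an unadjusted p under 0.05, with 0 by DESeq2. By the interaction 0 and 0 passed, where 0.00511% and 0.0153% of all genes did, again with 0 at an unadjusted p under 0.05 and 0 by DESeq2. The median log2 fold change of the members after stimulation was 0.21, against 0.01 over all genes. Rsad2 held 397 and 289.9 CPM in WT stimulated replicates A and B and 717 and 1667 in Akr1a1 KO. Both KO libraries lay above both WT libraries, but the replicates of the KO lay far apart, and the log2 fold change of 1.79 had a 95% interval of 0.41 to 3.18 (adjusted p 0.337). Cmpk2 held 158 and 91.9 CPM in WT, and in Akr1a1 KO 169.6 and 622 (log2 fold change 1.67, interval -0.23 to 3.57). Isg15 held 163 and 130.1 CPM in WT, and in Akr1a1 KO 199 and 337 (log2 fold change 0.87, interval -0.15 to 1.89). Isg20 held 34.1 and 55.9 CPM in WT, and in Akr1a1 KO 62.4 and 92.2 (log2 fold change 0.78, interval 0.079 to 1.48, adjusted p 0.406). In these genes, picked with their values known, the KO libraries were above the WT libraries, and no difference passed. Adar, Trim30a, Xaf1, Ifi35 and Oas2 also had both KO libraries above both WT libraries. Ifngr1 and Ifngr2 went the other way, with both KO libraries below both WT libraries, for Ifngr2 only by 39.6 against 39.7 CPM. How many of all genes separate like this with 2 libraries per group was not counted. With no filter on low counts, 7 members passed after stimulation, all higher in Akr1a1 KO: Rsad2, Cmpk2, Isg15, Isg20, Ifit3b, Mx2 and Trim30a. The size of the difference hardly moved there. For Rsad2 it was 1.80, while the adjusted p of edgeR went from 0.337 to 4.72e-21 on the same 2 libraries per group. The cause was not tested.

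The transcription factors did not separate the RAW264.7 genotypes after stimulation. Irf1 held 191 and 239.7 CPM in WT, and in Akr1a1 KO 187 and 281. Irf7 held 1006 and 667 CPM in WT, and in Akr1a1 KO 538 and 921. In Irf9 (146 and 153 CPM against 152 and 170.3 in Akr1a1 KO) and Stat2 (313 and 232 against 249 and 438) the ranges also overlapped. The type I receptor subunits held 47.4 and 47.5 CPM in WT against 42.9 and 50.7 in Akr1a1 KO for Ifnar1, and 22.1 and 19.1 against 16.5 and 19.3 for Ifnar2. Ifngr1 held 27.3 and 36.1 CPM against 26.1 and 26.1 in Akr1a1 KO, and Ifngr2 39.7 and 42.8 against 39.6 and 35.2. None of these genes passed. The 95% interval of the log2 fold change was -0.45 to 0.68 for Irf1, -1.81 to 1.42 for Irf7 and -0.26 to 0.92 for Stat2.

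**Figure D5:**
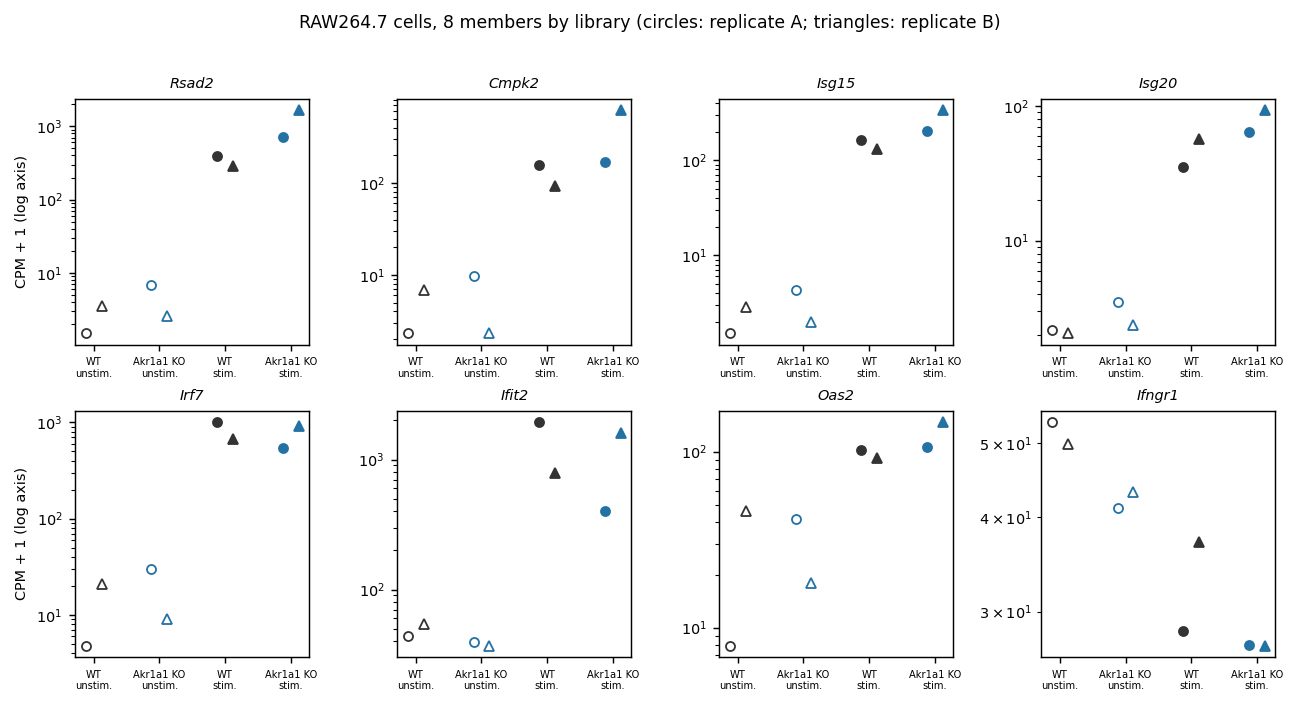
CPM (log axis) of 8 members in each RAW264.7 library, with replicate A as circles and B as triangles; the members were chosen after their values were seen. Within most groups the replicates of Rsad2, Cmpk2, Isg15 and Irf7 lay far apart, and Ifngr1 was lower in stimulated libraries of both genotypes.

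Most members differed in the same direction between the libraries of a group in RAW264.7 cells. The share of all genes that did so was not counted, so this is not set apart from a shift of the whole library. In WT unstimulated libraries 41 of 45 were higher in replicate B than in A, and in Akr1a1 KO unstimulated libraries 39 were higher in A than in B. In Akr1a1 KO stimulated libraries 42 were higher in B, and in WT stimulated libraries 35 were higher in A. Irf7 showed the swing at rest, with 3.78 and 20.0 CPM in WT replicates A and B and 28.6 and 8.07 in Akr1a1 KO. Nos2 was at 4.21 and 30.7 CPM in the same WT libraries, and at 54.7 and 38.1 in the Akr1a1 KO ones. Without both unstimulated libraries of replicate B, 39 members were higher on stimulation in WT and 36 in Akr1a1 KO, and none passed between genotypes at rest, where the median became 1.30.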

How the data were processed

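Per the paper, the authors dropped reads of poor quality or with adaptor sequence, used STAR for alignment to mm10 and counted reads per gene. The deposited counts are whole numbers for 56748 genes, neither normalized nor filtered. The tables name no build for their gene positions, and the strand setting of the counting is not given in the sources used here. The listed positions of Rsad2 and Irf1 lie away from their GRCm38.p6 promoter windows. These positions, and the distances between genes taken from them, are therefore not on GRCm38 (mm10).

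Members were matched by gene name. A gene needed 10 counts or more over an experiment to be tested (18691 in the libraries labelled BMDM, 19569 in RAW264.7 cells). The model had 1 mean for every group of an experiment, with TMM factors, in edgeR 4.0.16 (R 4.3.3), and used 2-sided quasi-likelihood F tests and Benjamini-Hochberg adjustment over all genes tested. The fitting code was tested on simulated data. In iNOS contrasts the limit of 1 on the absolute log2 fold change follows the paper. Each SE is the absolute log2 fold change divided by the square root of the F statistic of its test. The 95% intervals of log2 fold changes are built from that SE. Intervals of ratios and floors cover counting error only. Ratios of summed counts use exact intervals at 95%.

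Values in every library were given for the 6 members most increased and the 6 most decreased in stimulated iNOS KO against WT, among those that passed, did not overlap and had a mean of at least 1 CPM in 1 group; for Stat2, Irf1, Irf7, Irf9, Ifnb1 and the receptor subunits; and for up to 6 members with the largest interaction. Other members and libraries shown were chosen after their values were seen. Of the other lists, the 5 largest differences that passed were named. The members, lists and tests were chosen with earlier results of these data known.

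Replicate letters were not taken as pairs: deviations of libraries with the same letter correlated from -0.46 to 0.45 in the first experiment (labelled BMDM) and from -0.13 to 0.43 in the second (RAW264.7). DESeq2 1.42.0, library totals without TMM, another filter and none, fits of the compared groups alone, a replicate block and each library left out were tried as alternatives. Leaving out both unstimulated RAW264.7 libraries of replicate B was added after the data were seen. Promoter windows and start sites are those of RefSeq in GRCm38.p6. Figures were drawn with matplotlib 3.10.9 in Python 3.11.15.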

Additional observations from a re-analysis of the deposited data

Results flagged for a closer look

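In 22 members the effect of stimulation differed between WT and iNOS KO by the test of the difference itself, the interaction term of edgeR. The values are log2 differences, stimulation in iNOS KO minus stimulation in WT, over 3 libraries per group. Rsad2 (-2.11), Oasl2 (-1.58), Cmpk2 (-1.28), Rtp4 (-0.76), Oasl1 (-0.55), Isg15 (-0.51), Samhd1 (-0.43), Irf1 (-0.43) and Dtx3l (-0.37) rose less in iNOS KO. Ifitm3 (1.69), Ifi44 (1.62), Usp18 (0.88), Oas2 (0.72), Dhx58 (0.69), Oas1g (0.66), Ifi35 (0.63), Ifnar2 (0.58), Bst2 (0.53), Trim25 (0.52), Oas1a (0.49), Ddx58 (0.39) and Oas3 (0.29) rose more. Among these, the call was lost in some of 18 alternatives for Ddx58 (12), Isg15 (7), Irf1 (4), Oas3 (4), Dtx3l (2) and Rtp4 (1). Dixon's test for an outlying library, which needs 4 libraries in a group, was not run.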

How the results depend on the processing

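Of the calls, 26 of 34 in stimulated iNOS KO against WT, 4 of 8 at rest, 16 of 22 of the interaction, 43 of 45 and 42 of 44 on stimulation in WT and iNOS KO, and 35 of 42 and 29 of 42 on stimulation in RAW264.7 WT and Akr1a1 KO passed in the same direction under every alternative run other than the fold limit. The 8 lost under at least 1 alternative in stimulated iNOS KO against WT were Ifih1, Ifit1, Ifit3, Ifnb1, Irf7, Oas3, Trim30a and Xaf1. With the replicate block 16 members were higher and 18 lower there, Ifnb1 no longer passed, and no count moved by over 1.5 times; same-lettered libraries did not all deviate together. Between iNOS KO and WT at rest 2 members were higher with DESeq2, with library totals without TMM, with filterByExpr and with no filter on low counts, and 4 were higher and 12 lower when the groups compared were fitted alone. Library totals without TMM gave a median of 4.26 on stimulation in WT and 4.37 in iNOS KO, with 2 lower in iNOS KO, and turned Ifnar2 in WT to -0.14, where the median of all genes was -0.39. With filterByExpr the median in WT was 4.73. With no filter on low counts 1 member was lower in WT and 0 in iNOS KO. In RAW264.7 cells with no filter, 7 members passed as higher in stimulated Akr1a1 KO over WT, 1 at rest and 2 by the interaction, and the cause was not tested. The groups compared alone gave 0 lower on stimulation in iNOS KO and in RAW264.7 WT. With the limit of 1 on the absolute log2 fold change, stimulated iNOS KO against WT had 4 higher and 2 lower, rest 2 lower, the interaction 2 higher and 3 lower, and stimulation 0 lower in each genotype of both experiments. Without both unstimulated RAW264.7 libraries of replicate B, chosen after seeing the data, the median was 1.30 for Akr1a1 KO over WT at rest, 4.31 on stimulation in WT and -1.08 for the interaction, with 0 lower on stimulation in each genotype. With each library left out in turn, stimulated iNOS KO against WT gave 13 to 20 higher and 15 to 18 lower (median -0.04 to 0.06), rest gave 0 to 3 higher and 4 to 12 lower (median -0.14 to -0.07), and the interaction gave 11 to 14 higher and 6 to 11 lower (median -0.01 to 0.16). At rest the 3 higher and 12 lower came without iNOS KO stimulated replicate B, 0 higher without iNOS KO unstimulated replicate A, 2 higher without WT unstimulated replicate B, and 4 lower without WT or iNOS KO unstimulated replicate C. Stimulation gave 43 higher in WT and 43 in iNOS KO, 1 to 2 and 0 to 2 lower, and medians of 4.49 to 4.67 and 4.59 to 5.01. In RAW264.7 cells, where a lone library was assumed to vary like the other groups, stimulation gave 35 to 40 higher in WT and 30 to 41 in Akr1a1 KO, 0 to 1 lower in each, and medians of 2.96 to 4.31 and 3.09 to 4.35. The genotype comparisons there kept 0 higher and 0 lower, with medians of -0.13 to 0.36 stimulated, -0.27 to 0.87 at rest and -0.72 to 0.47 for the interaction. Not divided by length, 7 of the 10 highest members in stimulated WT were shared, and the longer ISRE core was in 11 members in place of 14. Few counts limit Ifnb1, and 2 libraries per group limit the RAW264.7 comparisons.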
